A study of Mus musculus with 8 samples.

Results

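Interferon-stimulated genes, which cells switch on when interferon reaches its receptor, were followed in the uterus of 8 pseudopregnant mice. The set was a list of 38 gene symbols, given by name and drawn up with earlier results of these data known. Of these, 37 carried a feature (a probe set) on the array under their symbol, among 19505 genes with a symbol of their own, and each was read from the probe set of highest mean. Ifi44, the remaining symbol, was not analysed here. Every mouse was a wild-type C57BL/6J female mated to a vasectomised male, with the plug counted as day 0.5, and whole uterus was collected on the morning of day 4.5. The 4 sham mice breathed room air. The 4 mice labelled ecig, called exposed below, breathed aerosol from an electronic cigarette in a whole-body chamber in daily sessions of 3 hours with 2 puffs each minute. Exposure ran on 5 days of each week over the 4 weeks that preceded mating, and on every day from then to collection. The liquid, heated at 245 °C, held 24 mg/mL nicotine in a 55:45 mix of propylene glycol with vegetable glycerin, unflavoured, and among the samples used here no group breathed aerosol without nicotine. No embryo is present in pseudopregnancy.

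Interferons of type I and type III are released by cells that sense foreign nucleic acid, and interferon gamma is released by natural killer cells and T cells. Their receptors signal through JAK kinases to transcription factors. A complex that holds STAT2 and IRF9 binds the interferon-stimulated response element (ISRE), while the gamma-activated site (GAS) serves the response to interferon gamma. The genes induced block viral replication, mark proteins for display to T cells and feed back on the pathway. The uterus is known for a type I interferon of its own epithelium, interferon epsilon, encoded by Ifne.

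Promoter sequences of RefSeq (GRCm38.p6) were held for 30 of the 37 genes, each window running from 250 bases before a start of transcription to 50 bases after it. The ISRE core was searched as GAAA, any 2 bases and GAAA, and the GAS as TTC, any 3 bases and GAA, on both strands. An ISRE match lay in the promoters of 17 of the 30 genes (56.7%), against 3.99% of 27025 genes with a promoter in the table. A GAS match was found for 10 of the 30 (33.3%), against 9.55% of all genes, and 5 genes held both. The windows below show the ISRE matches upstream of the start in 6 genes whose values across the mice are described in the text, with the matched bases in capitals, and for Irf1 the GAS match. Isg15 is shown at chr4:156200860-156200911 on the minus strand, Oas1a at chr5:120907526-120907560 on the minus strand, Ifit1 at chr19:34640770-34640828 on the plus strand, and Ifit3 at chr19:34583358-34583431 on the plus strand. Gbp2 is shown at chr3:142620589-142620628 on the plus strand, Igtp at chr11:58199507-58199546 on the plus strand and Irf1 at chr11:53769904-53769952 on the plus strand.
Isg15: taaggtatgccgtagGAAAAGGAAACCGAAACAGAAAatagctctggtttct
Oas1a: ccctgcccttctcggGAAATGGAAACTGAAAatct
Ifit1: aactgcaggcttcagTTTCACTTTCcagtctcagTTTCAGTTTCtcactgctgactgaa
Ifit3: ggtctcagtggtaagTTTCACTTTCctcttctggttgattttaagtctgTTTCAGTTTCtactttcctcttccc
Gbp2: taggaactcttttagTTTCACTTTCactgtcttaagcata
Igtp: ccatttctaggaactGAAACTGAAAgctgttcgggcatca
Irf1: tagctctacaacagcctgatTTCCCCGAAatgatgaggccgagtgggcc
Each run is written 5′ to 3′ on the strand of its gene. The matches in Ifit1, Ifit3 and Gbp2 read as TTTC, since the core lies on the other strand there. The printed stretch of Igtp also holds a GAS match, 45 to 37 bases before the start, left in lower case. A match is a run of letters and does not show binding.

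Expression is given on the log2 scale, as deposited. The 8 columns share a common distribution, from 2.75 to 13.6 with a median of 7.08, so a change shared by all genes is not visible. The mean correlation with the other arrays was lowest in exposed mice 4 (0.977) and 2 (0.982), the remaining 6 mice having 0.986 to 0.987, so both stand apart. Genes that define the uterus (Esr1, Pgr, Hoxa10 and 6 others) had a mean between 9.03 and 9.21 in every mouse.

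None of the 37 interferon-stimulated genes passed limma's test of exposed against sham mice, with p-values adjusted by Benjamini-Hochberg across the array's 22206 probe sets (0 of 37, adjusted p from 0.838 to 0.992), where the share over the whole array was 0%. At an unadjusted p under 0.05 stood 1 of the 37, against 5.42% of all probe sets. Means were lower in exposed mice for 29 of the 37 genes, against 50.2% of all genes, and higher for 8. The median log2 difference, exposed minus sham, was -0.19 over the 37 genes and -0.00054 over all genes. That median was -0.07 without exposed mouse 2, -0.09 without sham mouse 2, and -0.29 without exposed mouse 1. It was 0.06 without exposed mice 2 and 4 together, and 10 of the 37 genes then had a lower mean, 20 having turned from lower to higher and 1 (Rsad2) from higher to lower. These counts describe the list and were not tested.

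**Figure D1:**
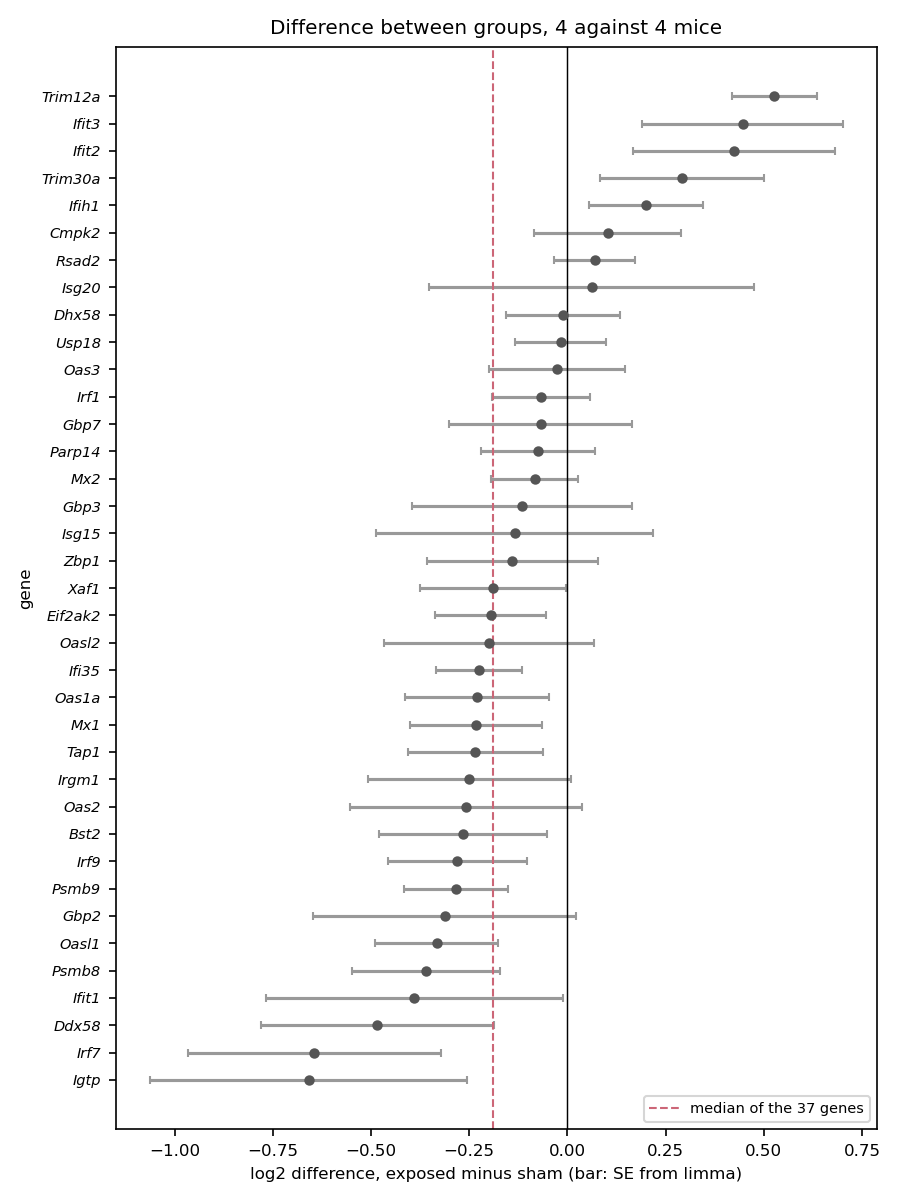
Log2 difference between 4 exposed and 4 sham mice (x axis) for each of the 37 genes (y axis, ordered by the difference). Points are differences, bars are limma's SE, and the dashed line marks the median of -0.19. Trim12a lies highest at 0.53 and Igtp lowest at -0.66.

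Trim12a, a mouse gene of the TRIM5 family of restriction factors, was the only one of the 37 whose sham and exposed values did not overlap, against 2.73% of all probe sets. It read 9.18, 9.02, 8.74 and 9.05 in sham mice 1 to 4 and 9.44, 9.60, 9.45 and 9.61 in exposed mice 1 to 4. Every exposed mouse lay above every sham mouse, and the exposed values were the closer together. The difference was 0.53 ± 0.11 (SE), 1.44-fold, with an unadjusted p of 0.000622 and an adjusted p of 0.838 in limma, so the gene cannot be called changed over the whole array. The unadjusted p of Trim12a in limma stayed under 0.05 in all 20 fits, with differences from 0.44 to 0.59 and adjusted p from 0.248 to 0.9995. These fits reuse the same mice and are not independent of each other. The groups did not overlap in any of the 20, but leaving out mice cannot make separate groups overlap. That count is therefore no further test of the gene.

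Genes related to Trim12a had differences of both signs. Trim30a, known to dampen Toll-like receptor signalling, had a higher mean as well (log2 difference 0.29 ± 0.21 SE), with 6.98 and 7.07 in exposed mice 1 and 3, 6.20 and 6.60 in exposed mice 2 and 4, and 5.96 to 6.69 in sham mice. Trim12c, a close relative of Trim12a named after its values were seen, had the opposite sign (log2 difference -0.38 ± 0.17 SE, adjusted p = 0.838 in limma), with 6.58 to 7.18 in sham and 6.10 to 6.72 in exposed mice. How far the probes of such related genes read each other's transcripts is not known from the files.

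Among the sensors of foreign nucleic acid, 3 of 4 had lower means. Ddx58, which encodes the RNA sensor RIG-I, had 6.54 in exposed mouse 2 and 6.87 in exposed mouse 4, below the sham range of 7.57 to 7.99, with 7.78 and 8.06 in exposed mice 1 and 3. The group difference of Ddx58 was -0.48 ± 0.30 (SE), and without exposed mice 2 and 4 it was 0.12. Ifih1, which encodes MDA5, a sensor of long double-stranded RNA, went the other way, with 7.92 to 8.48 in sham and 8.28 to 8.69 in exposed mice. Dhx58, which encodes the regulatory helicase LGP2, differed by -0.01 ± 0.14 (SE). Zbp1, a sensor of nucleic acid in the Z form, differed by -0.14 ± 0.22 (SE) and was lowest in exposed mouse 2 (5.93) and next in sham mouse 3 (6.21).

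All 3 interferon regulatory factors had lower means. Irf7, which amplifies production of type I interferon, read 6.87, 7.14, 6.46 and 7.05 in sham mice 1 to 4 and 6.80, 5.60, 6.97 and 5.57 in exposed mice 1 to 4. Exposed mice 2 and 4 lay below all sham mice, while exposed mice 1 and 3 lay among them. The difference was -0.64 ± 0.32 (SE) and 0.0069 without exposed mice 2 and 4 (adjusted p = 0.838 in limma with all mice). Irf9, the DNA-binding partner of STAT2, read 7.33 and 7.67 in the same 2 exposed mice against 7.82 to 8.25 in sham mice, and its difference went from -0.28 to -0.0095 without them. Irf1, a transcription factor gene induced by interferon gamma whose GAS match is printed above, differed by -0.07 ± 0.13 (SE), and its lowest value was in exposed mouse 1 (8.25).

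The ISG15 system adds a ubiquitin-like protein to other proteins. Isg15, the modifier, read 6.31, 6.18, 5.49 and 6.18 in sham mice 1 to 4 and 6.72, 4.95, 6.42 and 5.54 in exposed mice 1 to 4. Sham mouse 3 and exposed mice 2 and 4 were low, and exposed mouse 1 was the highest of all. The difference of -0.13 ± 0.35 (SE) became 0.19 without exposed mouse 2, so its sign rests on that mouse. Usp18, which removes ISG15 and restrains the type I receptor, lay between 7.06 and 7.53 in all mice.

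The IFIT genes, whose proteins bind viral RNA or hold up its translation, had unlike profiles across mice. Ifit1 read 7.02, 7.46, 5.98 and 7.34 in sham mice 1 to 4 and 7.05, 5.70, 7.16 and 6.34 in exposed mice 1 to 4. Ifit2 read 6.21, 6.38, 5.21 and 6.47 in sham mice and 6.52, 6.83, 6.18 and 6.44 in exposed mice. Ifit3 read 7.61, 7.69, 6.96 and 7.80 in sham mice and 7.66, 7.88, 7.60 and 8.70 in exposed mice. All 3 were lowest among sham mice in sham mouse 3. In exposed mouse 2, however, Ifit1 had its lowest value of all mice and Ifit2 its highest, and Ifit3 had its highest in exposed mouse 4.

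The group differences of the IFIT genes were -0.39 ± 0.38 (SE) for Ifit1, 0.42 ± 0.26 for Ifit2 and 0.45 ± 0.25 for Ifit3, and none passed limma's threshold (adjusted p = 0.867, 0.838 and 0.838). Without sham mouse 3 the difference of Ifit2 was 0.14, and without exposed mouse 4 that of Ifit3 was 0.20. For Ifit1 it was 0.15 without exposed mice 2 and 4. Ifit3b, a near copy of Ifit3, followed it with 6.01 in sham mouse 3 and 8.02 in exposed mouse 4, and the probes of these genes may share transcripts.

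**Figure D2:**
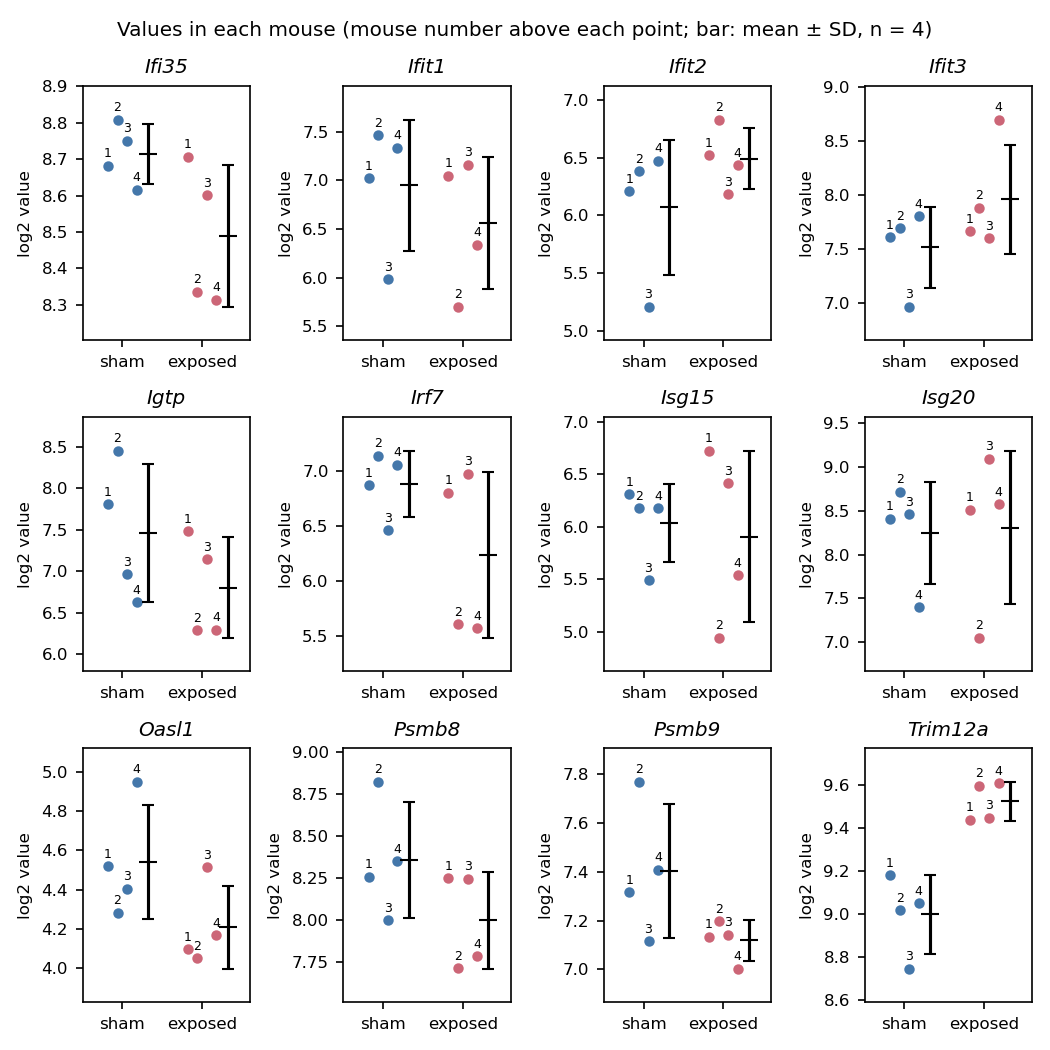
Log2 values (y axis) of 12 genes in 4 sham and 4 exposed mice (x axis), with the mouse number above each point and the mean ± SD beside each group. Trim12a separates the groups, Irf7 and Psmb8 are low in exposed mice 2 and 4, and Ifit1, Ifit2, Ifit3 and Isg15 are low in sham mouse 3.

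All 5 genes of the OAS family, some of whose proteins make the signal that starts RNA decay, had lower means, with differences from -0.33 to -0.03. Oasl1, the member of smallest p, read 4.52, 4.28, 4.40 and 4.95 in sham mice 1 to 4 and 4.09, 4.05, 4.51 and 4.17 in exposed mice 1 to 4. Exposed mouse 3 was level with sham mouse 1 and the other 3 exposed mice were lower. The difference was -0.33 ± 0.16 (SE, adjusted p = 0.838 in limma). It was -0.20 without sham mouse 4 and -0.44 without exposed mouse 3. Without exposed mice 2 and 4, 4 of the 5 had a higher mean (Oas1a 0.05, Oas2 0.08, Oas3 0.06 and Oasl2 0.24), and Oasl2 was at 0.03 without exposed mouse 2 alone. In 4 of the 5 genes (Oas1a, Oas2, Oasl1 and Oasl2) the lowest value of the 8 was in exposed mouse 2, at 6.05 for Oas1a and 8.13 for Oasl2. Oas3, at 3.78 to 4.57, and Oasl1, at 4.05 to 4.95, lay in the lowest part of the array's range (percentiles 7.05 and 11.2). Each was highest in sham mouse 4.

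The remaining antiviral effectors split in direction, 5 higher and 4 lower. Isg20, an exonuclease that degrades RNA, read 8.41, 8.72, 8.46 and 7.40 in sham mice 1 to 4 and 8.51, 7.05, 9.09 and 8.58 in exposed mice 1 to 4. Sham mouse 4 and exposed mouse 2 were each well below the rest of their group, and the difference was 0.06 ± 0.41 (SE). It was 0.48 without exposed mouse 2 and -0.22 without sham mouse 4. Bst2, which encodes tetherin, the protein that holds budding virus at the cell surface, was lowest in exposed mouse 4 (8.81) and lay between 9.39 and 9.97 elsewhere. Eif2ak2, which encodes the kinase PKR, read 8.62 and 8.74 in exposed mice 2 and 4 and 9.07 to 9.24 in the other 6. Without exposed mice 2 and 4 the difference went from -0.27 to 0.08 for Bst2 and from -0.20 to 0.06 for Eif2ak2.

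In the 4 genes that follow, sham and exposed values overlapped as well. Mx1, a GTPase gene known to be defective in this strain, differed by -0.23 ± 0.17 (SE) and its relative Mx2 by -0.08 ± 0.11. Rsad2, which encodes viperin, stayed between 5.69 and 6.01 in all 8 mice. Cmpk2, a nucleotide kinase gene, differed by 0.10 ± 0.19 (SE).

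Of the other induced genes, Ifi35 had the smallest p. Its values were 8.68, 8.81, 8.75 and 8.62 in sham mice 1 to 4 and 8.71, 8.34, 8.60 and 8.31 in exposed mice 1 to 4. Exposed mice 2, 3 and 4 lay below all sham mice, mouse 3 narrowly. The difference was -0.23 ± 0.11 (SE, adjusted p = 0.838 in limma), or -0.06 without exposed mice 2 and 4. Xaf1, which promotes cell death, read 8.07 and 8.01 in these mice and 8.42 to 8.85 in the others, and its difference went from -0.19 to 0.15 without them. Parp14, an ADP-ribosyltransferase gene, differed by -0.08 ± 0.14 (SE).

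The interferon-induced GTPases, which attack vacuoles that hold pathogens and respond strongly to interferon gamma, had lower means in 5 of 5 genes and spread widely in the sham group. Without exposed mice 2 and 4, 4 of the 5 (Gbp2, Gbp3, Gbp7 and Irgm1) had a higher mean, with differences of 0.05, 0.14, 0.08 and 0.01. Igtp read 7.81, 8.46, 6.96 and 6.62 in sham mice 1 to 4 and 7.48, 6.29, 7.14 and 6.29 in exposed mice 1 to 4. Sham mice 1 and 2 were high, and exposed mice 2 and 4 were the lowest. The difference was -0.66 ± 0.40 (SE, adjusted p = 0.838 in limma). It was -0.33 without sham mouse 2, -0.94 without sham mouse 4 and -0.15 without exposed mice 2 and 4. Gbp2 likewise read 8.73 and 9.03 in sham mice 1 and 2, 7.60 and 7.68 in sham mice 3 and 4, and 7.54 to 8.42 in exposed mice.

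Sham mouse 2 had the highest value of all 8 mice for each of the 5 GTPases. Gbp3, Gbp7 and Irgm1 differed by -0.12 ± 0.28, -0.07 ± 0.23 and -0.25 ± 0.26 (SE), less than the SD within the sham group (0.46, 0.52 and 0.55). Without exposed mouse 2 the differences of Gbp3 and Gbp7 were 0.14 and 0.05, and without sham mouse 2 they were 0.04 and 0.11. Those of Gbp2 and Irgm1 were -0.06 and -0.07 without sham mouse 2. Irgm2, a relative outside the list, had the same profile, with 8.89 and 9.42 in sham mice 1 and 2 and 7.54 to 8.40 in exposed mice.

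The 3 genes of antigen processing also had lower means. Psmb9, a subunit of the immunoproteasome, which cuts proteins into peptides for display, read 7.32, 7.77, 7.12 and 7.41 in sham mice 1 to 4 and 7.13, 7.20, 7.14 and 7.003 in exposed mice 1 to 4. Only sham mouse 3 lay among the exposed mice. The difference was -0.28 ± 0.13 (SE, adjusted p = 0.838 in limma), -0.16 without sham mouse 2 and -0.38 without sham mouse 3. Without exposed mice 2 and 4 it was -0.26. Psmb8, another such subunit, read 8.26, 8.83, 8.001 and 8.35 in sham mice and 8.25, 7.72, 8.25 and 7.79 in exposed mice. Its difference of -0.36 ± 0.19 (SE) was -0.21 without sham mouse 2, -0.48 without sham mouse 3 and -0.11 without exposed mice 2 and 4. Tap1, a chain of the peptide transporter, differed by -0.23 ± 0.17 (SE). Without exposed mice 2 and 4, all 3 genes still had lower means.

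The list varied more between mice than most genes. The SD over all 8 mice had a median of 0.312 among the 37 genes and 0.170 among all genes, and 13 of the 37 (35.1%) lay above the 95th percentile of all genes. The SD was larger in exposed than in sham mice for 21 of the 37 genes (56.8%), against 66.0% of all genes.

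This spread followed single mice of both groups. Exposed mouse 2 had the lowest value of the 8 for 18 of the 37 genes (48.6%), against 13.5% of all genes. Sham mouse 3 was the lowest for 11 (29.7%), against 11.01%, or for 21 once exposed mouse 2 was left out, and exposed mouse 4 for 6 (16.2%), against 20.9%. Sham mouse 2 was the highest for 16 (43.2%), against 11.3% of all genes, and exposed mouse 3 for 8 (21.6%), against 9.79%.

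**Figure D3:**
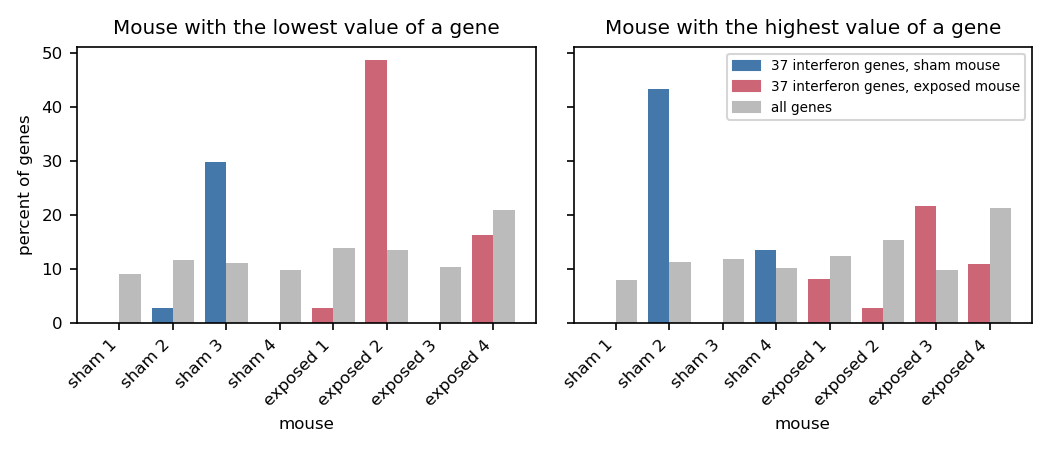
Percent of genes (y axis) with their lowest (left) or highest (right) value in each mouse (x axis), for the 37 interferon-stimulated genes (blue for sham, red for exposed) and for all genes (grey). Exposed mouse 2 and sham mouse 3 hold 48.6% and 29.7% of the lowest values, and sham mouse 2 holds 43.2% of the highest.

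Within the sham group alone, sham mouse 3 was the lowest of the 4 for 30 of the 37 genes (81.1%), against 24.6% of all genes. The exceptions were Ddx58, Oas3, Oasl1, Mx1, Isg20, Ifi35 and Igtp. Sham mouse 2 was the highest of the 4 for 23 (62.2%), against 24.2%. Measured as the median deviation of the 37 genes from their sham means, sham mice 1 to 4 stood at 0.09, 0.19, -0.33 and 0.02, and exposed mice 1 to 4 at 0.03, -0.49, 0.12 and -0.31. Sham mouse 3 was therefore as low as exposed mouse 4, and the groups overlap.

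Among exposed mice, mouse 2 lay below all sham mice for 22 of the 37 genes (59.5%), against 26.1% of all genes, and mouse 4 for 13 (35.1%), against 29.1%. Both were below all sham mice for 11 genes, and the share of all genes for both together was not counted. Exposed mice 1 and 3 lay within the sham range for 28 and 24 of the 37, where the shares over all genes were 59.0% and 59.5%. The genes that exposed mouse 2 held above their sham mean were 6: Ifih1, Irf1, Ifit2, Ifit3, Rsad2 and Trim12a. An ISRE match was as frequent among genes lowest in exposed mouse 2 (8 of 14 with a promoter) as among the others (9 of 16), and it was present for 5 of 8 genes with higher and 12 of 22 with lower means after exposure.

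**Figure D4:**
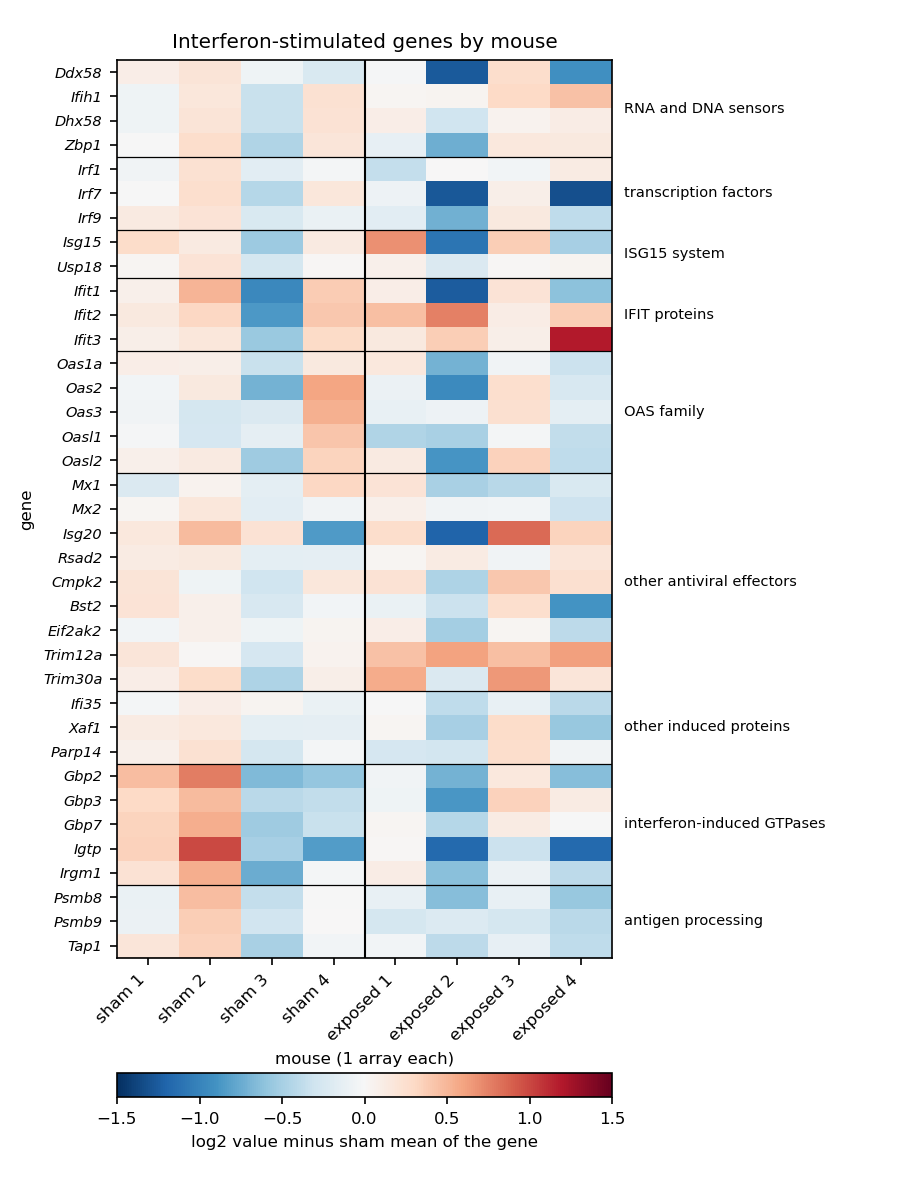
Log2 value minus the sham mean of each gene (colour) for the 37 genes, grouped by role (rows), in 8 mice (columns). Blue fills most of the column of exposed mouse 2, where the median is -0.49, and much of that of sham mouse 3, at -0.33.

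Whole uterus holds many cell types, and fewer cells of a type cannot be told apart from less RNA per cell. In exposed mouse 2, the mean of 14 macrophage and monocyte markers was 7.21, against 7.71 to 8.01 in sham mice and 7.73 to 8.08 in the other exposed mice, and 11 of the 14 were lowest in that mouse. The mean of 10 natural killer cell markers was 5.78 there, against 6.14 to 6.40 in sham mice, with 8 of 10 lowest, and 6.99 in exposed mouse 4, the highest. Smooth muscle markers were at 10.33 in exposed mouse 2 and 10.67 to 11.01 in sham mice, with 8 of 9 lowest. Their part in the low values of interferon-stimulated genes was not tested.

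Sham mouse 3, low for interferon-stimulated genes as well, had the lowest sham mean for 2 of these lists, by small margins. The macrophage and monocyte markers were at 7.71 there, 7.78 to 8.01 in the other sham mice and 7.74 in exposed mouse 3. Single markers were mixed, Itgam (6.81) being the lowest and Mertk (7.98) the highest of the sham mice. The natural killer cell markers were at 6.14, against 6.30 to 6.40 in the other sham mice. Its smooth muscle markers lay between those of sham mice 4 (10.67) and 1 (11.01). Markers of plasmacytoid dendritic cells, known as strong sources of type I interferon, lay between 6.08 and 6.26 in all 8 mice. The T and B cell markers ranged from 5.62 to 6.02 and dendritic cell markers from 6.17 to 6.58. Neutrophil and eosinophil markers ranged from 5.64 to 5.98, and epithelial markers from 8.40 to 8.77. Stromal markers were at 10.03 in exposed mouse 2 and 10.23 to 10.33 elsewhere. Endothelial markers ranged from 8.25 to 8.72, while those of adipocytes read 6.82 and 7.07 in exposed mice 1 and 2 and 5.79 to 6.22 elsewhere. Of the markers in these lists, 0 passed limma's adjusted threshold. At an unadjusted p under 0.05 stood 2 of 11 neutrophil and eosinophil, 3 of 13 epithelial and 1 of 8 adipocyte markers. Each of the other lists had 0, and the share of all probe sets was 5.42%.

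**Figure D5:**
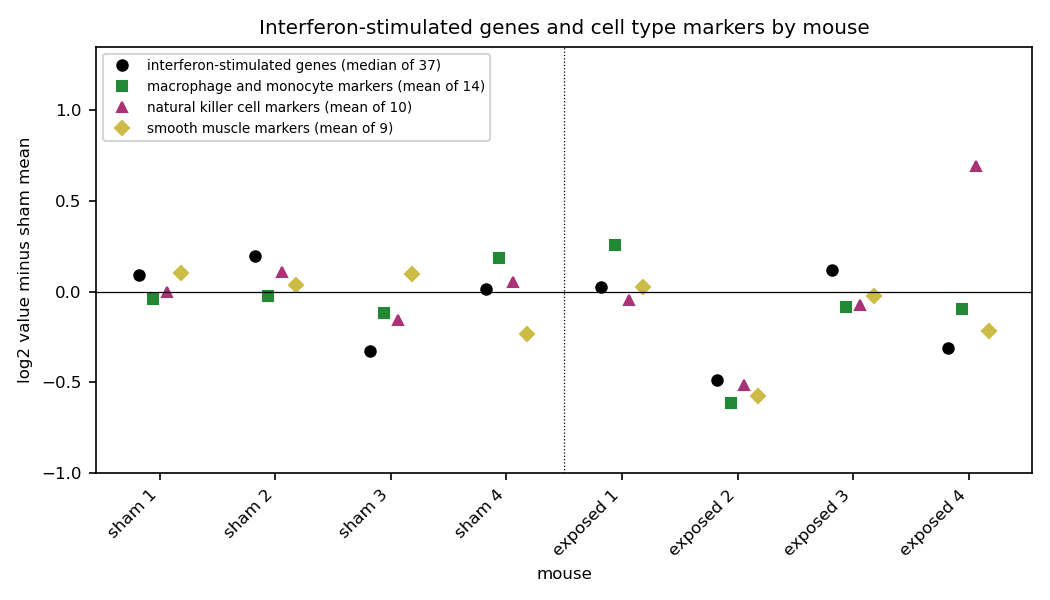
Log2 value minus the sham mean (y axis) in each mouse (x axis) for the median of the 37 interferon-stimulated genes and the means of 3 marker lists. All 4 measures are low in exposed mouse 2, whereas in exposed mouse 4 the interferon genes are low (-0.31) and natural killer cell markers high.

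Elsewhere in the pathway, 0 genes of 7 lists passed limma's adjusted threshold. Only 1 (Psme2) stood at an unadjusted p under 0.05, against 5.42% of all probe sets. Of 18 interferon ligands, 11 had higher and 7 lower means, with differences between -0.14 and 0.18. Ifne read 6.25 to 6.47 in sham and 6.19 to 6.53 in exposed mice. Ifna7, Ifna5 and Ifna2, interferon alpha genes of closely related sequence, had the smallest p-values, with differences of 0.15 ± 0.12, 0.18 ± 0.17 and -0.13 ± 0.13 (SE).

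Of 6 receptor genes, 3 had higher and 3 lower means. Ifnar1 and Ifnar2, the chains of the type I receptor, differed by 0.07 ± 0.10 and 0.07 ± 0.09 (SE). Il10rb, a chain of the type III receptor, differed by 0.23 ± 0.12 and Ifngr2, of the interferon gamma receptor, by -0.15 ± 0.13. Of 4 JAK and STAT genes, 2 had higher and 2 lower means. Stat2, itself induced by interferon, read 8.67, 9.04, 7.85 and 8.37 in sham mice 1 to 4 and 8.32, 7.87, 8.46 and 8.12 in exposed mice 1 to 4, so that sham mouse 3 and exposed mouse 2 were again low. Jak1 differed by -0.19 ± 0.13 and Tyk2 by 0.14 ± 0.12 (SE). Stat2 differed by -0.29 ± 0.23, or by -0.10 without sham mouse 2, and Jak1 by -0.080 without exposed mouse 2.

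Upstream receptors and adaptors had 8 higher and 9 lower means of 17. Tlr4, the receptor for bacterial lipopolysaccharide, had the largest positive difference (0.50 ± 0.23 SE), with 9.53 and 9.79 in exposed mice 2 and 4, 8.66 and 9.16 in exposed mice 1 and 3, and 8.49 to 9.18 in sham mice. It was 0.33 without exposed mouse 4 and 0.13 without exposed mice 2 and 4. Cgas, the sensor of DNA in the cytosol, differed by -0.24 ± 0.12 (SE) and Irf8 by -0.12 ± 0.09. Of 11 inhibitors of the pathway, 5 had higher and 6 lower means, the smallest p-values being those of Adar (-0.21 ± 0.13 SE), which edits double-stranded RNA, Socs1 (-0.27 ± 0.16), an inhibitor of JAK kinases, and Ptpn11 (-0.15 ± 0.10). Without exposed mice 2 and 4, Adar was at -0.045 and Socs1 at -0.14, and Socs1 was at -0.13 without sham mouse 2.

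Other interferon-induced genes outside the list had lower means in 35 of 49 cases, with a median difference of -0.08. In 18 of the 49 the lowest value was in sham mouse 3, and in 14 in exposed mouse 2. Cxcl10, a chemokine that draws T cells, had the smallest p (log2 difference -0.38 ± 0.19 SE), followed by Irgm2 (-0.59 ± 0.30) and Slfn1 (0.20 ± 0.11). Irgm2 was at -0.32 without sham mouse 2, and without exposed mice 2 and 4 Cxcl10 was at -0.15 and Irgm2 at -0.30, with Slfn1 at 0.087. Genes of MHC class I presentation had lower means in 13 of 15 cases (median -0.16), among them Psme2, an activator subunit of the proteasome (-0.27 ± 0.11, adjusted p = 0.838 in limma), B2m, the light chain of class I molecules (-0.25 ± 0.12), and Erap1, which trims peptides (-0.20 ± 0.13). Erap1 was at -0.12 without sham mouse 2, and without exposed mice 2 and 4 the 3 genes were at -0.15, -0.13 and -0.048. In 7 of the 15 the lowest value was in exposed mouse 2, and in 2 in sham mouse 3.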

How the data were processed

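The authors deposited log2 expression values for 22206 probe sets on 8 arrays, 1 per mouse, hybridised with biotin-labelled RNA. The log2 scale is read from the values, and Partek is named, without a version, per the submitters' processing notes. Background correction and scaling are stated nowhere, with the build not given in the sources used here. Sorted values of the arrays differed by at most 0.0198, and the values were used unchanged. Groups came from the titles. The platform annotation gave no symbol to 2634 probe sets.

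Differences, exposed minus sham, were fitted across all probe sets with limma 3.58.1 in R 4.3.3 (lmFit, eBayes, no covariates), with Benjamini-Hochberg adjustment and a threshold of 0.05. Folds are back-transformed log2 differences. The number of arrays limits the precision, and p-values weigh the difference against the spread between these mice, as moderated by limma. On arrays simulated from these means and SDs for this comparison, with 200 of 22206 probe sets changed, the share recovered was 38.4% at 1.5-fold, 84.8% at 2-fold and 98.6% at 4-fold. The changed probe sets were drawn from the whole array and simulated independently of each other. The 37 genes had a larger SD (median 0.312, against 0.170 among all genes), so these shares do not describe them. Replicate numbers are shared by the groups, and the labels do not say that they pair the mice. Same-numbered deviations correlated at -0.256 to 0.0802, and differently numbered ones at -0.359 to 0.45. So few correlations cannot exclude a pairing.

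Values in every mouse were given for members without overlap, the 8 of smallest p and the 5 of largest SD, and from each pathway list the 3 genes of smallest p were named, with Ifne, Ifnar1, Ifnar2 and Stat2. Other genes were chosen after their values were seen. The members and lists were chosen with earlier results of these data known. Of 306 list entries, 27 were unmatched and 3 matched through an older name. Trim25 stood in 2 pathway lists. Alternatives were scaling, filters on dim probe sets, moderation, array weights, the replicate block, the mean of a gene's probe sets and leaving out mice.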

Additional observations from a re-analysis of the deposited data

Results flagged for a closer look

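In 6 of 120 groups of 4 mice, covering the 37 genes and the 23 other pathway genes named, a single mouse stood well away from its group (Dixon's test). Chance alone would flag around 1 group in 20. Exposed mouse 2 was low for Dhx58 (5.90, others 6.25 to 6.31) and Jak1 (8.32, others 8.75 to 8.78). Sham mouse 3 was low for Isg15 (5.49, others 6.18 to 6.31) and Oas1a (6.43, others 6.84 to 6.91). Sham mouse 4 was high for Ifna5 (8.02, others 7.77 to 7.79), and sham mouse 1 was low for Ifna7 (6.20, others 6.42 to 6.45).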

How the results depend on the processing

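Under each of the 19 alternatives, 0 of the 37 genes and 0 of the other pathway genes passed limma's adjusted threshold, with all probe sets past it numbering 0 to 1 when 1 mouse was left out. The median difference of the 37 genes lay between -0.29 and -0.07 with 1 mouse left out and turned to 0.060 without exposed mice 2 and 4, an alternative added once the values had been seen. That setting left 10 genes with lower means, 3 at an unadjusted p under 0.05 (Isg15, Trim12a and Trim30a, all higher) and 4 without overlap (these and Cmpk2). Of all 22206 probe sets, 884 then stood at an unadjusted p under 0.05. The share of all probe sets without overlap was not counted with mice left out, and groups of fewer mice separate more easily. Leaving out exposed mice 2 and 4 turned 20 of the 37 genes from a lower to a higher mean, among them Oasl2 (0.24), Xaf1 (0.15), Gbp3 (0.14) and Ddx58 (0.12), and Rsad2 from higher to lower (-0.01). Among the genes with values in every mouse and the other pathway genes named, it turned the differences of Ifit1 to 0.15, Irf7 to 0.0069, Isg15 to 0.53, Ifngr2 to 0.074, Ifna5 to -0.10, Ifna7 to -0.037 and Tyk2 to -0.017. With the replicate block, 3 genes (Trim12a, Ifit2 and Ifit3) stood at an unadjusted p under 0.05 in place of 1, and 0 calls changed. Among all probe sets 1274 did so, in place of 1203. Leaving out 1 mouse gave 1 to 6 such genes and 1 to 3 without overlap. Such genes numbered 6 without exposed mouse 3 (Ddx58, Irf7, Irf9, Oasl1 and Bst2, all lower, and Trim12a), beside 1598 of all 22206 probe sets. They were 5 without sham mouse 3 (Irgm1, Psmb8, Psmb9 and Tap1, all lower, and Trim12a), beside 904 probe sets. Without exposed mouse 1 they were 4 (Irf7, Mx1 and Ifi35, all lower, and Trim12a), beside 2545 probe sets, the largest number with 1 mouse left out. The smallest was 726, without sham mouse 2. With 1 mouse left out, differences ranged from -0.41 to 0.19 for Isg15, -0.22 to 0.48 for Isg20 and -0.061 to 0.052 for Ifne. Leaving out probe sets under the 50th percentile kept 23 of the 37 genes, of which 19 had lower means and 11 were lowest in exposed mouse 2, and 796 probe sets at an unadjusted p under 0.05. Quantile normalization and median centring moved none of these counts beyond 1.5 times. Signal over background could not be assessed, as no background level was used here.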
